A study of Mus musculus with 6 samples.

Results

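The 7 pump subunit genes described here are Atp1b1, Atp1b2, Atp2a2, Atp2b1, Atp2b2, Atp2b3 and Atp2b4. They were chosen as subunits of the pumps that move sodium, potassium and calcium across neuronal and glial membranes, by a rule that names them and uses no measured value, although earlier results of these data were known when the list was made. They are 7 of 25896 gene symbols listed, and their 25 transcripts are among 76938 listed transcripts. Transcripts of a gene share reads, so the transcript with the most counts on average stood for its gene. RNA of the hippocampus was sequenced in 3 Dicer1-ifKO libraries and 3 WT libraries, to ask which mRNAs differ once adult forebrain neurons have lost Dicer1.

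Dicer1-ifKO mice were C57BL/6 males with the genotype Dicer1 flox/flox and the transgene CaMKIIa-creERT2. WT mice were C57BL/6 males with the genotype Dicer1 flox/flox and no Cre transgene. Both groups received tamoxifen, the ligand that switches the recombinase on, with death 3 weeks after it, and are labelled as 3 months old. RNA of 3 mice was pooled for a library, which makes 9 mice for each genotype, although the design text gives 12. The CaMKIIa promoter acts in excitatory neurons of the forebrain, so inhibitory neurons, glia and vessels keep Dicer1. As only Dicer1-ifKO mice carried the transgene, the loss of Dicer1 and an effect of the recombinase cannot be told apart.

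The Na,K-ATPase exports sodium and imports potassium at the cost of ATP, and so maintains the gradients on which resting and action potentials rest. It is made of a catalytic alpha subunit and a beta subunit that brings the enzyme to the membrane, and in brain the beta1 subunit is mostly neuronal and the beta2 subunit mostly glial. Calcium that enters a neuron is removed by SERCA pumps, which load the endoplasmic reticulum, and by plasma membrane calcium ATPases (PMCA), which expel it and are activated by calmodulin.

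Counts summed over representative transcripts were 15409076 to 20677846 per Dicer1-ifKO library and 11832791 to 16125477 per WT library. Dicer1 mRNA differed by 0.04 on the log2 scale with an SE of 0.06 (edgeR adjusted p 0.849), measured over a transcript that spans the whole gene, so this value does not check the deletion. Esr1, whose sequence is partly shared with the recombinase, rose, with a log2 fold change of 1.58 and an SE of 0.15 (edgeR adjusted p 7.53e-06). Defining markers of hippocampal excitatory neurons, inhibitory neurons, astrocytes, oligodendrocytes and microglia were all detected, and 0 of the 6 in each of these lists passed the test. Summed excitatory markers were 5234 to 5576 CPM in Dicer1-ifKO libraries and 5088 to 5217 CPM in WT libraries (counts scaled to a common library size). Summed astrocyte markers were 1091 to 1106 CPM in Dicer1-ifKO libraries and 1113 to 1146 CPM in WT libraries, and neither pair of ranges overlapped. Camk2a alone made up most of the excitatory sum, with 3497 to 3713 CPM in Dicer1-ifKO libraries and 3279 to 3393 CPM in WT libraries. Median log2 fold changes were 0.0070 over the 6 excitatory markers and -0.056 over the 6 astrocyte markers. Of all tested genes, 7.99% were higher and 8.07% lower in Dicer1-ifKO without overlap. WT replicate 1 stood apart from the other libraries. The rank correlation of its log2 deviations with transcript length was -0.27 across genes, against -0.11 to 0.14 in the 5 other libraries, and it had the lowest depth.

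Dicer1 cuts microRNA precursors into mature microRNAs, which pair with messenger RNAs mainly through their seed (bases 2 to 8), so the 3′ UTRs of the 7 genes were searched for the matching 7-mers of 13 microRNAs of brain. Their mature sequences were taken from RefSeq (GRCm38.p6), where 13 of 14 listed microRNAs were matched by name, and mmu-miR-124-3p was not searched. Matches were found for 8 microRNAs, 17 in all. They lay in 5 of the 7 genes, 5 in Atp1b1 and 3 each in Atp2a2, Atp2b1, Atp2b2 and Atp2b4, whereas Atp1b2 and Atp2b3 held none of the 13. The UTRs were 451 nt long in Atp2b3, 811 nt in Atp2a2, 1167 nt in Atp1b1, 1512 nt in Atp1b2, 2868 nt in Atp2b2, 3024 nt in Atp2b1 and 4325 nt in Atp2b4, against a median of 1030 nt over 13886 tested genes. The median and the shares of all UTRs rest on another pick, the coding record matched to each gene's most counted transcript. By that pick the UTR was 4706 nt in Atp2b2 and 7234 nt in Atp2b4. Atp2a2 had no UTR by that pick, as its most counted transcript had no matched record, and is not among the 13886. Atp2a2, Atp2b2 and Atp2b4 are therefore not compared on like UTRs. The 7-mer of miR-181a-5p occurred in the most members, 5, and in 16.8% of the UTRs of the 13886 tested genes. The 7-mer of miR-30a-5p occurred in 3 members, each time followed by an A, and in 14.6% of all UTRs. The mature microRNAs, with the seed in capitals, and the matches, with the 7-mer in capitals, are shown for the 2 microRNAs whose matches were the most common or always followed by an A.
miR-181a-5p: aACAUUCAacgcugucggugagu
Atp1b1: ggtgctgcgtccttaTGAATGTt
Atp2a2: agcagacttaggaaaTGAATGTg
Atp2b1: ggttatgcttaaataTGAATGTa
Atp2b2: accgtggccccagcaTGAATGTa
Atp2b4: tcagcacccaccttcTGAATGTc
miR-30a-5p: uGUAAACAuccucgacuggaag
Atp2a2: taggtctgatggttcTGTTTACa
Atp2b1: taaatgatacagatcTGTTTACa
Atp2b2: aagaagaatgtaattTGTTTACa
The target stretches are given on the strand of the mRNA, from GENCODE M21 transcripts on GRCm38. For miR-181a-5p they lay at chr1:164437403-164437425 (minus strand) in Atp1b1, chr5:122456792-122456814 (minus) in Atp2a2, chr10:99025317-99025339 (plus) in Atp2b1, chr6:113748176-113748198 (minus) in Atp2b2 and chr1:133705967-133705989 (minus) in Atp2b4. Those for miR-30a-5p lay at chr5:122456551-122456573 (minus) in Atp2a2, chr10:99023544-99023566 (plus) in Atp2b1 and chr6:113747717-113747739 (minus) in Atp2b2. The 7-mer of miR-29a-3p, TGGTGCT, was present in Atp1b1, Atp2b1 and Atp2b4 and in 13.9% of all UTRs, and that of let-7a-5p, CTACCTC, in Atp2a2 and Atp2b2 and in 9.53% of all UTRs. The other 4 microRNAs with a match had it in 1 member each: miR-9-5p, miR-128-3p and miR-137-3p in Atp1b1, and miR-138-5p in Atp2b4. A match describes the letters of the UTR only, and no binding was measured.

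None of the 7 pump genes passed the test between Dicer1-ifKO and WT hippocampus. The number of members with an adjusted p below 0.05 was 0 in edgeR's quasi-likelihood test over 17405 genes, in which 0.161% of all genes were called, 0.126% as higher and 0.0345% as lower in Dicer1-ifKO. At an unadjusted p below 0.05 there was 1 member, Atp2b3, beside 10.4% of all genes, or 5.63% when only higher ones are counted. Mean levels were nevertheless above WT in 7 of 7 members, with fitted log2 fold changes of 0.05 to 0.20 and a median of 0.07. Over all tested genes 49.0% had a positive log2 fold change and the median was -0.0032. The 3 Dicer1-ifKO values lay above all 3 WT values in 2 members, Atp2a2 and Atp2b3, and this held for 7.99% of all tested genes. In bulk tissue, fewer cells of a type and less RNA per cell cannot be told apart.

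**Figure D1:**
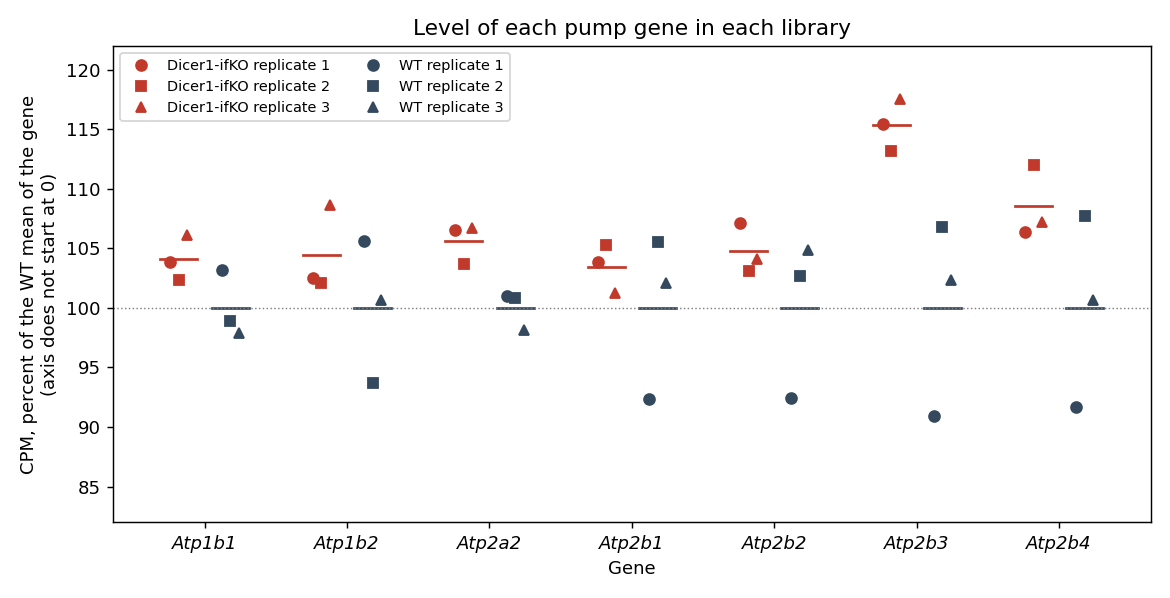
Level of the 7 pump genes in each library, as CPM in percent of the gene's WT mean. Symbols are libraries (Dicer1-ifKO red, left; WT dark, right), bars are group means and the dotted line is 100%. The Dicer1-ifKO libraries lie above all WT libraries for Atp2a2 and Atp2b3, and WT replicate 1 (dark circles) is the lowest library for Atp2b1 to Atp2b4, at 90.9% to 92.5% of the WT mean.

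Neither beta subunit of the Na,K-ATPase passed the test, and the genotypes overlapped for both. Atp1b1 (chromosome 1, 164437267 to 164458355, minus strand, GRCm38), the neuronal beta1 subunit, had 1619, 1596 and 1654 CPM in Dicer1-ifKO replicates 1, 2 and 3, and 1609, 1542 and 1527 CPM in WT replicates 1, 2 and 3. WT replicate 1 lay among the Dicer1-ifKO libraries and the groups overlapped. Its log2 fold change of 0.06 (SE 0.04, 95% interval -0.03 to 0.15) had an adjusted p of 0.711 in edgeR, and the interval runs from a 0.977-fold to a 1.11-fold level.

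Atp1b2 (chromosome 11, 69599741 to 69605942, minus strand), the glial beta2 subunit, also known as an adhesion molecule on glia, had 342, 341 and 363 CPM in Dicer1-ifKO libraries, and 353, 313 and 336 CPM in WT libraries. WT replicate 1 exceeded Dicer1-ifKO replicates 1 and 2, so the groups overlapped. In edgeR this came to 0.06 on the log2 scale (SE 0.05, 95% interval -0.04 to 0.17) with an adjusted p of 0.716, and to 0.018 without WT replicate 2. The mix of the pair within a library was compared as a share. Per kb of transcript, Atp1b2 made up 16.1%, 16.2% and 16.6% of the summed Atp1b1 and Atp1b2 level in Dicer1-ifKO libraries and 16.6%, 15.5% and 16.7% in WT libraries. The means differed by 0.038 percentage points (exact permutation test, two-sided, p = 1), and 3 against 3 libraries cannot give a p below 0.1.

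Atp2a2, the gene of SERCA2, the main calcium pump of the endoplasmic reticulum in neurons, was slightly higher in every Dicer1-ifKO library. It had 775, 754 and 776 CPM in Dicer1-ifKO libraries and 735, 734 and 714 CPM in WT libraries (chromosome 5, 122442702 to 122502225, minus strand). The lowest Dicer1-ifKO library lay above the highest WT library. This difference of 0.08 in log2 units (SE 0.04, 95% interval -0.01 to 0.17) did not pass edgeR's test, with an adjusted p of 0.545. Its most counted transcript, Atp2a2-203, runs past the end of the gene and overlaps Anapc7 on the other strand by 2211 bases. The transcript Atp2a2-202, which ends 10.8 kb earlier, held 99.1% to 99.2% of those counts in Dicer1-ifKO libraries and 98.9% to 99.2% in WT libraries.

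The 4 plasma membrane calcium pumps shared 1 pattern among the WT libraries: WT replicate 1 was the lowest of the 6 libraries for each of the 4. Atp2b1 (chromosome 10, 98915152 to 99026143, plus strand), the gene of PMCA1, which most cell types express, had 1001, 1015 and 976 CPM in Dicer1-ifKO libraries and 890, 1017 and 984 CPM in WT libraries. WT replicates 2 and 3 lay within or just above the range of the Dicer1-ifKO libraries, and WT replicate 1 lay below it. Dicer1-ifKO over WT, this was 0.05 in log2 units (SE 0.05, 95% interval -0.05 to 0.15; edgeR adjusted p 0.791).

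Atp2b2 (chromosome 6, 113745670 to 114042015, minus strand), the gene of PMCA2, a fast pump known for its need in cerebellar neurons and cochlear hair cells, had 324, 311 and 314 CPM in Dicer1-ifKO libraries and 279, 310 and 317 CPM in WT libraries. WT replicate 3 lay above Dicer1-ifKO replicates 2 and 3, and the groups overlapped. The fitted log2 fold change, 0.07 (SE 0.05, 95% interval -0.04 to 0.17), had an edgeR adjusted p of 0.703.

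Atp2b3 (chromosome X, 73503086 to 73571005, plus strand), the gene of PMCA3, a pump largely restricted to neurons, showed the largest difference of the 7. It had 180, 176 and 183 CPM in Dicer1-ifKO libraries and 142, 166 and 159 CPM in WT libraries, with counts of 2769, 3175 and 3749 in Dicer1-ifKO and 1663, 2642 and 2591 in WT. All 3 Dicer1-ifKO libraries exceeded all 3 WT libraries, and the spread was wider in WT (179.7 ± 3.41 CPM in Dicer1-ifKO and 156 ± 12.8 CPM in WT, SD, n = 3 each). This gave a log2 fold change of 0.20 (SE 0.05, 95% interval 0.09 to 0.31), a fitted 1.15-fold level, with an adjusted p of 0.152 in edgeR and an unadjusted p of 0.00098 in the same fit. The call depended on the fit. Atp2b3 passed with DESeq2 (log2 fold change 0.21, adjusted p 0.044), which called 0.33% of the 22441 genes with a p-value. DESeq2 gave some of these genes no adjusted p, so its adjustment covered fewer genes and the share among them is higher. Atp2b3 passed as well in edgeR without a filter on low counts (0.21, adjusted p 0.025, 0.673% called). It also passed in edgeR without WT replicate 2 (0.25, adjusted p 0.033, 0.597% called), whereas without WT replicate 1 the log2 fold change was 0.14 (adjusted p 0.373, edgeR). Summed markers of excitatory neurons, 5234 to 5576 CPM in Dicer1-ifKO and 5088 to 5217 CPM in WT, were also higher without overlap. Camk2a made up most of this sum, however, and the median log2 fold change of the 6 markers was 0.0070. Any part of these markers in the Atp2b3 difference was not tested. Atp2b3 had the shortest 3′ UTR of the 7 genes and none of the searched 7-mers.

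Atp2b4 (chromosome 1, 133702678 to 133801041, minus strand), the gene of PMCA4, had 87.1, 91.6 and 87.7 CPM in Dicer1-ifKO libraries and 75.0, 88.1 and 82.4 CPM in WT libraries. WT replicate 2 lay between the Dicer1-ifKO libraries, so the groups overlapped. With 0.11 (SE 0.06, 95% interval -0.004 to 0.23) on the log2 scale, its edgeR adjusted p was 0.503.

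The differences of the 4 plasma membrane calcium pumps were smaller without WT replicate 1, and that of Atp2a2 was not. The coding transcripts used for levels were 4483 to 8292 nt long for Atp2b1 to Atp2b4 and 4486 nt for Atp2a2, against 2580 nt for Atp1b1 and 2842 nt for Atp1b2. The length correlation and the offset used the most counted transcripts instead. Their lengths were 7130, 7326, 4483 and 11725 nt for Atp2b1, Atp2b2, Atp2b3 and Atp2b4, 2580 nt for Atp1b1 and 3751 nt for Atp1b2. Across 16657 tested genes the rank correlation of the log2 fold change with transcript length was 0.20 with all libraries and 0.11 without WT replicate 1, in genes that share the same 6 libraries. Without WT replicate 1 the log2 fold change was -0.0037 for Atp2b1, 0.01 for Atp2b2, 0.14 for Atp2b3 and 0.06 for Atp2b4. Once length and GC content were fitted as an offset per library, it was 0.01 for Atp2b1, -0.00045 for Atp2b2, 0.17 for Atp2b3 and 0.04 for Atp2b4. Atp1b1, Atp1b2 and Atp2a2 had 0.08, 0.11 and 0.09 without WT replicate 1, and Atp1b1 and Atp1b2 had 0.08 and 0.05 with the offset. The most counted transcript of Atp2a2 had no length in the annotation, so the offset could not be applied to it. Neither fit called a pump gene in edgeR.

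**Figure D2:**
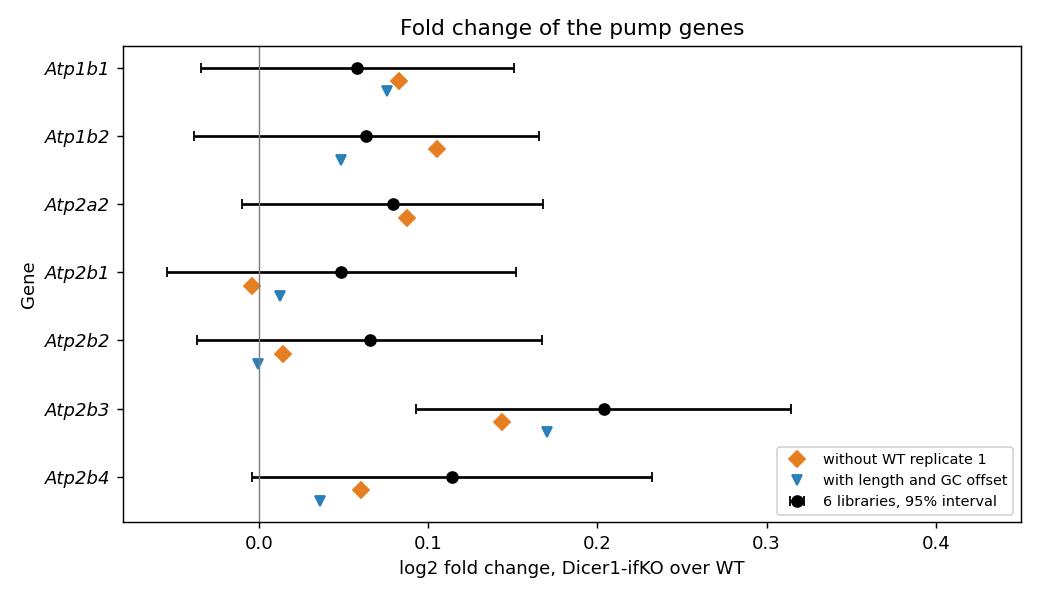
Log2 fold change of the 7 pump genes, Dicer1-ifKO over WT. Black points are the edgeR fit of all 6 libraries with its 95% interval, orange diamonds the fit without WT replicate 1 and blue triangles the fit with the length and GC offset, which Atp2a2 lacks. The interval of Atp2b3, 0.09 to 0.31, is the only one that lies above 0, and Atp2b1 and Atp2b2 come to lie near 0 in the other fits.

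Among the 7 genes the level per length spanned a wide range, in the same order in both genotypes. Levels are CPM per kb of a protein-coding transcript, given as mean ± SD over 3 libraries. Where another transcript was the most counted, the coding one held 99.9% of its counts in Atp1b2, 99.3% in Atp2b2, 99.2% in Atp2b4 and 74.5% in Atp2a2. Atp1b1 was the highest with 629 ± 11.3 CPM per kb in Dicer1-ifKO and 604 ± 17.1 in WT, 4.48 times the next gene over all libraries. Atp2b1 followed with 140 ± 2.81 CPM per kb in Dicer1-ifKO and 135 ± 9.22 in WT, then Atp2a2 with 129 ± 1.87 in Dicer1-ifKO and 119 ± 3.84 in WT, and Atp1b2 with 123 ± 4.28 in Dicer1-ifKO and 117 ± 7.14 in WT. The ranges over all 6 libraries overlapped between Atp2b1 and Atp2a2 and between Atp2a2 and Atp1b2, so the order of these neighbours is not beyond their spread. Atp2b2 had 44.5 ± 0.971 CPM per kb in Dicer1-ifKO and 42.5 ± 2.72 in WT, and its range overlapped that of Atp2b3, with 40.1 ± 0.761 in Dicer1-ifKO and 34.7 ± 2.84 in WT. Atp2b4 was the lowest with 10.6 ± 0.283 CPM per kb in Dicer1-ifKO and 9.80 ± 0.774 in WT.

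**Figure D3:**
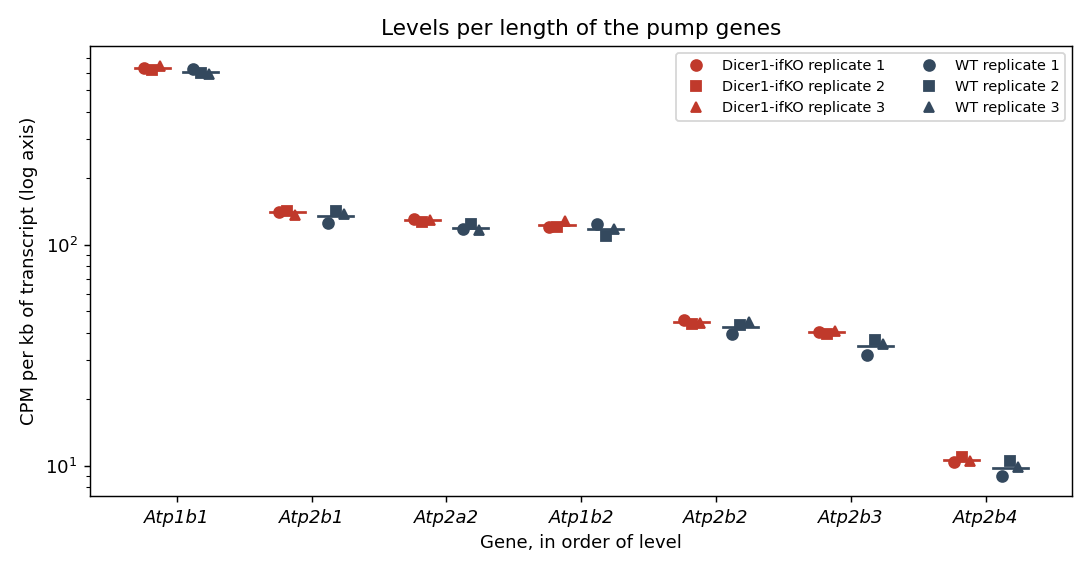
Levels of the 7 pump genes in CPM per kb of transcript on a log axis, in order of level. Symbols are libraries (Dicer1-ifKO red, left; WT dark, right) and bars are group means. Atp1b1 stands above 591 CPM per kb in every library and Atp2b4 below 11.0, while Atp2b1, Atp2a2 and Atp1b2 lie close together.

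Within the plasma membrane calcium pumps, Atp2b3 took a larger share and Atp2b1 a smaller share in every Dicer1-ifKO library than in any WT library. Shares are of the summed CPM per kb of the 4 genes within a library, so a factor common to a library drops out of them, whereas a length-dependent one does not. Atp2b3 made up 17.0%, 16.6% and 17.6% in Dicer1-ifKO libraries and 15.4%, 15.9% and 15.6% in WT libraries. The difference of means was 1.43 percentage points (exact permutation test, two-sided, p = 0.1, adjusted over the 4 shares 0.2), where 0.1 is the smallest p that 3 against 3 libraries allow. Atp2b1 made up 59.4%, 60.2% and 58.9% in Dicer1-ifKO libraries and 61.0%, 61.0% and 60.6% in WT libraries, a difference of -1.34 points (exact permutation test, p = 0.1, adjusted 0.2). Shares of 1 sum are tied to each other, so the 2 differences are not separate results.

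Atp2b2 made up 18.9% ± 0.395 in Dicer1-ifKO and 19.1% ± 0.465 in WT (SD, n = 3 each; exact permutation p = 0.6). Atp2b4 made up 4.52% ± 0.113 in Dicer1-ifKO and 4.41% ± 0.0886 in WT (SD, n = 3 each; exact permutation p = 0.2, adjusted 0.267), and both sets of libraries overlapped. Without WT replicate 1 the difference of the Atp2b3 share was 1.33 points and that of the Atp2b1 share -1.28 points, with no overlap between the groups.

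**Figure D4:**
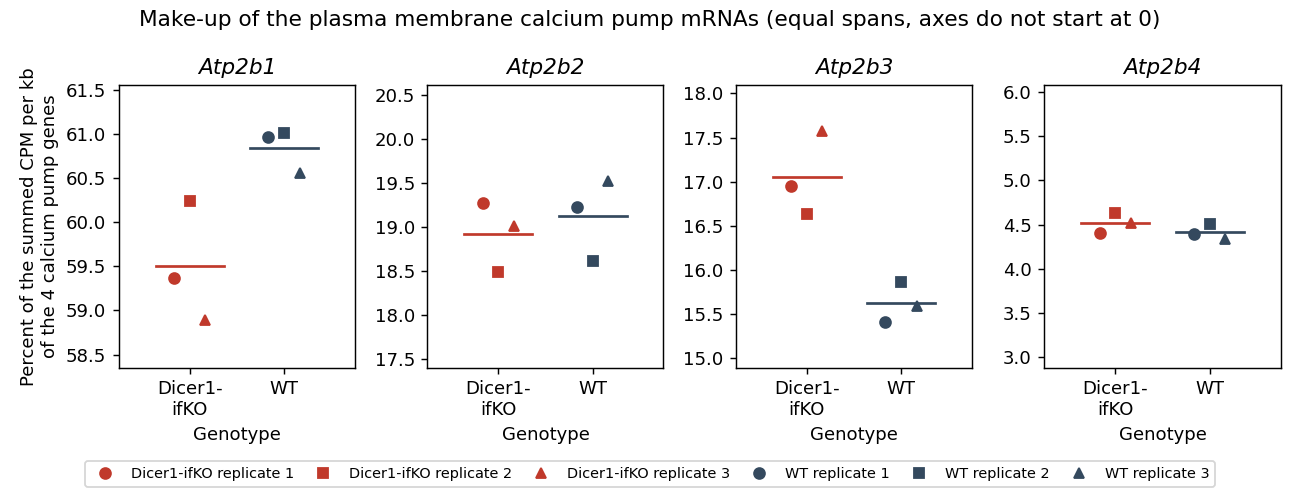
Share of each plasma membrane calcium pump gene in the summed CPM per kb of the 4 genes, in percent, in each library. Symbols are libraries (Dicer1-ifKO red, left; WT dark, right), bars are group means and the 4 axes have equal spans. Atp2b3 lies at 16.6% to 17.6% in Dicer1-ifKO and at 15.4% to 15.9% in WT.

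The 25 transcripts of the 7 genes all passed the filter on low counts, and 0 passed edgeR's test over 60500 transcripts, in which 0.0777% were called. The lowest adjusted p was 0.209, and 7 had an unadjusted p below 0.05, beside 9.44% of all transcripts. Transcripts of a gene share reads, so their counts are not independent of each other. The transcript with the lowest p was Atp2b2-006, annotated as a processed transcript, which lies inside the Atp2b2 gene. It had 167, 204 and 247 counts in Dicer1-ifKO libraries and 75, 154 and 136 counts in WT libraries, which is 0.46 on the log2 scale (SE 0.13; edgeR adjusted p 0.209).

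Relative to Atp2b2-002, the most counted Atp2b2 transcript, Atp2b2-006 stood at 3.35%, 3.64% and 3.84% in Dicer1-ifKO libraries and at 2.29%, 3.13% and 2.64% in WT libraries. The coding transcript Atp2b2-003, whose 3′ end lies 2.62 kb inside that of Atp2b2-002, stood at 56.6%, 57.7% and 56.9% in Dicer1-ifKO libraries and at 49.0%, 54.8% and 53.9% in WT libraries. In both, all Dicer1-ifKO libraries exceeded all WT libraries and WT replicate 1 was the lowest. Of 18 such ratios these were the 2 that were higher without overlap, beside 7.35% of 43092 ratios over all tested genes. Lower without overlap were 0 of the 18, beside 3.77%. Atp1b1 and Atp2b1, with no other transcript listed, gave no ratio. Without WT replicate 1 the difference of Atp2b2-003 was 2.73 points, against 4.49 with all libraries, and that of Atp2b2-006 was 0.725 points, against 0.924. Both ratios had p = 0.1 in the exact permutation test (0.675 after Benjamini-Hochberg adjustment over the 18). Atp2a2-201, which holds the 3132 nt reading frame, stood at 75.5%, 75.4% and 74.9% of Atp2a2-203 in Dicer1-ifKO libraries and at 71.6%, 75.4% and 73.1% in WT libraries, which overlapped; the difference was 1.88 points, and 0.980 without WT replicate 1. Both transcripts of Atp2b3 had like values, with log2 fold changes of 0.19 for Atp2b3-001 (SE 0.05) and 0.19 for Atp2b3-003 (SE 0.06), and adjusted p of 0.216 and 0.265 in edgeR.

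**Figure D5:**
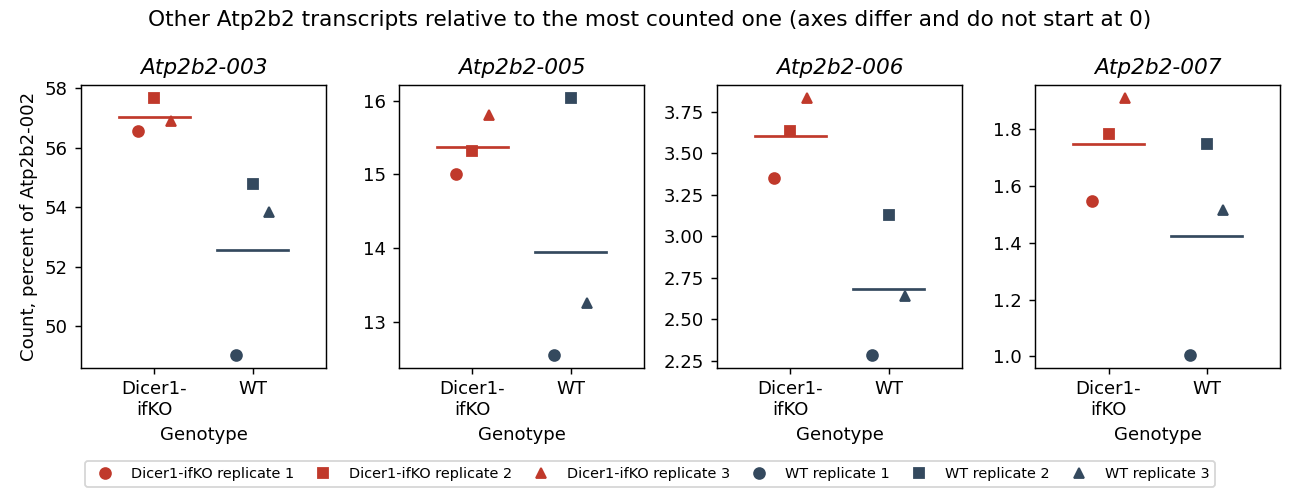
Counts of 4 Atp2b2 transcripts in percent of the count of Atp2b2-002 in the same library. Symbols are libraries (Dicer1-ifKO red, left; WT dark, right) and bars are group means; the axes differ between panels. Atp2b2-003 and Atp2b2-006 do not overlap between the genotypes, and WT replicate 1 is the lowest library in all 4 panels.

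The genes whose centred log2 CPM profile was most like that of each member over the 6 libraries came from a comparison with 10448 genes, by the root mean square difference. For Atp2b3 they were Gpr176, an orphan receptor, at 0.013 and Mll1, a histone methyltransferase, at 0.018, with log2 fold changes of 0.17 and 0.20. The pick used the 6 libraries that also give the fold changes, so like fold changes follow from it and are no separate result. Atp2b4 was closest to Itsn2 at 0.010 and Kcnmb4, an auxiliary subunit of calcium-activated potassium channels, at 0.017. Atp2b1 was closest to Hnrnpu and Eif4g3, both at 0.011, and Atp2b2 to Slitrk3 at 0.0097 and Epha4, an ephrin receptor, at 0.015. Atp2a2 was closest to Zer1 at 0.0087 and Ddx41 at 0.011, Atp1b1 to Atp13a2 and Alg2, both at 0.011, and Atp1b2 to Trim8 at 0.0052 and Foxp4 at 0.015. The members' own SD over the 6 libraries was 0.044 in Atp1b1 to 0.14 in Atp2b3, and 0 of the 14 like genes was itself a member.

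Genes that work beside the 7 pumps did not pass the test either. In 5 lists, 55 of 59 listed genes were tested and 0 passed (lowest adjusted p 0.461, edgeR), where 0.161% of all tested genes were called. Of the 55, 1 had an unadjusted p below 0.05 in edgeR, beside 10.4% of all tested genes. Of the other sodium, potassium and calcium pump subunits 8 were tested, with a median log2 fold change of 0.05. Over the alternative fits, which did not all hold the same genes, the median ranged from 0.0072 to 0.10. The lowest was over 10 genes (DESeq2) and the highest over 8 (edgeR without WT replicate 3). Atp1b3, the beta3 subunit, had a log2 fold change of -0.09 (SE 0.05), and Atp1a4, an alpha subunit known from sperm, 0.15 (SE 0.09).

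Pump regulators and partners (17 tested) had a median of -0.01. Calm2, a gene of calmodulin, which activates the plasma membrane calcium pumps, had 1429, 1407 and 1454 CPM in Dicer1-ifKO libraries and 1538, 1498 and 1511 CPM in WT libraries. Its groups did not overlap, but the log2 fold change of -0.08 (SE 0.04) had an adjusted p of 0.523 in edgeR, and 8.07% of all tested genes were lower without overlap. Calm3 had -0.08 (SE 0.05) and Fxyd5, a FXYD regulator of the Na,K-ATPase, 0.20 (SE 0.11).

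The sodium-calcium exchangers, which also expel calcium, had a median of 0.03 over 8 tested genes, with 0.15 for Slc24a4 (SE 0.08), 0.07 for Slc8a2 (SE 0.05) and -0.06 for Slc24a3 (SE 0.04). Without WT replicate 1 Slc24a4 had 0.06 and Slc8a2 0.04, and the median was -0.02. Genes of calcium release and store-operated entry (12 tested) had a median of -0.00031, with 0.10 for the reticulum calcium sensor Stim1 (SE 0.06), -0.16 for the channel Orai3 (SE 0.09) and 0.08 for the IP3 receptor Itpr1 (SE 0.05). Of 10 genes of mitochondrial calcium uptake 1 had a positive log2 fold change, the uniporter Mcu, listed as Ccdc109a, at 0.11 (SE 0.06). Their median was -0.05. Vdac3, an outer membrane channel, had 114, 113 and 117 CPM in Dicer1-ifKO libraries and 123, 124 and 121 CPM in WT libraries, which is -0.10 on the log2 scale (SE 0.05; edgeR adjusted p 0.461), and Vdac1 had -0.07 (SE 0.04).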

How the data were processed

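Per the file headers, each deposited file lists transcripts with coordinates, a raw count and a normalised value. The deposited counts are whole reads per transcript, not normalised. The deposited normalised signal is each count over a constant of its library (0.967 to 1.28 in Dicer1-ifKO, 0.72 to 1.01 in WT) and was not tested. Libraries were made with a stranded mRNA kit, per the labels' protocols. The submitters' processing notes name TopHat2 2.0.6, Bowtie2 2.0.5, DESeq2, CASAVA 1.8.2 and SAMtools 0.1.18, and as builds mm10 and GRCm38. No read counter, annotation release or strand setting is given in the sources used here. Whether reads of genes that overlap on opposite strands were separated is therefore not known.

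The design had assumed gene counts: a symbol's value is that of its transcript of highest mean count (6 libraries). Genotypes were compared by the quasi-likelihood F-test of edgeR 4.0.16 under R 4.3.3, after TMM normalisation and filterByExpr (minimum count 10). Adjusted p are Benjamini-Hochberg values over 17405 genes, called below 0.05. Log2 fold changes are Dicer1-ifKO over WT with a prior count of 0.125. CPM use TMM-scaled library sizes. Intervals are at 95%. Alternatives were other normalisations, DESeq2 1.42.0, no filter, summed transcripts, each library left out, the replicate number as a block, and a length and GC offset (loess per library). Single shares were compared by exact permutation. The steps were tested on simulated data.

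The files' coordinates are GRCm38. GENCODE M21, which gave lengths and UTRs, had identical coordinates for 84.2% of all transcripts and 69.3% of the most counted ones per gene. Other transcripts took the record of the same symbol with the nearest ends, at most 5000 bases off in sum, where present. Levels per kb use the most counted transcript with a protein-coding M21 record within 200 bases of its ends. UTRs of at least 50 nt entered the shares of UTRs with a 7-mer, which was searched on the mRNA strand only.

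Libraries of a genotype came from different pools of mice, per the labels' protocols, and the chi-square of 2 libraries of a genotype, per degree of freedom, was 1.75 to 4.35, so each counted as 1 replicate. A count of 3 corresponded to 0.145 to 0.254 CPM. Named genes are the 7 members, Dicer1 and Esr1, up to 3 genes with the smallest p from each related list (some items of these lists are not reported here), and for each member the 2 genes with the smallest root mean square difference (mean log2 CPM of at least 3). Anapc7 was named after the overlap was seen, and Camk2a after the marker sums were seen. Members and lists were chosen with earlier results of these data known.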

Additional observations from a re-analysis of the deposited data

How the results depend on the processing

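Across 15 alternative fits, 313 of the 322 recomputed log2 fold changes of the 7 pump genes and 15 related genes that had an adjusted p kept their direction and their side of the threshold, 3 passed it newly (Atp2b3) and 6 changed sign. Another 5 had no adjusted p in DESeq2, and the offset could not be applied to Atp2a2. The sign changed for Atp2b1 without WT replicate 1 (-0.0037, with 0.089 as the highest value when a library was left out), for Atp2b2 with the length and GC offset (-0.00045), and with that offset without WT replicate 1 for Atp2b1 (-0.014), Atp2b2 (-0.029), Slc8a2 (-0.010) and Itpr1 (-0.0032). Each lay within its SE of 0. Beside 28 genes called in all, DESeq2 called 74, edgeR without a filter 151, with summed transcripts 7, and with each library left out 6 to 105. The count of pump genes called was 1 (Atp2b3) with DESeq2, without a filter and without WT replicate 2, so 0 to 1 with a library left out. The adjusted p of Atp2b3 ranged from 0.025 to 0.46. Same-numbered libraries were not treated as pairs in the main fit. Their deviations from the group mean correlated at -0.069, 0.070 and -0.11, which cannot settle whether they were processed as pairs, as each mean holds only 3 libraries. With the replicate block 22 genes and 0 pump genes were called, and with the replicate block and the length and GC offset 16 genes and 0 pump genes. The share difference of Atp1b2 (0.038 points) ranged from -0.326 to 0.235 with a library left out, at -0.105 when Dicer1-ifKO replicate 3 was omitted and -0.326 for WT replicate 2. That of Atp2b2 (-0.195 points) was 0.046 with summed transcripts and -0.450 to 0.020 with a library left out, at 0.020 for Dicer1-ifKO replicate 2 and 0.0064 for WT replicate 3. In an alternative chosen after seeing the data, leaving out WT replicate 1 changed the sign of 4 transcript ratios, to -0.235 points for Atp1b2-004, 0.114 for Atp2b2-004, -0.088 for Atp2b4-003 and -0.728 for Atp2b4-002. The cause of these shifts was not tested. With a library left out, log2 fold changes ranged from 0.04 to 0.08 for Atp1b1, 0.02 to 0.11 for Atp1b2, 0.07 to 0.09 for Atp2a2, 0.01 to 0.10 for Atp2b2, 0.14 to 0.25 for Atp2b3 and 0.06 to 0.17 for Atp2b4. Over all alternatives the list medians ranged from -0.04 to 0.04 for regulators, -0.03 to 0.07 for exchangers, -0.06 to 0.05 for calcium release and -0.06 to -0.02 for mitochondrial uptake.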
